A study of Mus musculus with 4 samples.

Results

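Enzymes change collagen both before and after it leaves the cell. The mRNA of 10 genes for such enzymes was followed in C3H10T1/2 mesenchymal stem cells (MSCs). The genes were taken by name from the deposited gene table and were the prolyl 4-hydroxylase alpha subunits P4ha1, P4ha2 and P4ha3, the lysyl hydroxylases Plod1, Plod2 and Plod3, and the lysyl oxidases Lox, Loxl1, Loxl2 and Loxl3. They make up 10 of the 54532 genes in the table, and 9 of them were among the 13233 genes with a mean of at least 1 CPM (read counts scaled to a common library total). Loxl2 was the gene left out.

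Poly(A) RNA of 4 groups was sequenced with 1 library each, so no replicate bears on any difference, and pairs of libraries are given no p-value. The control group received a control siRNA for 48 h and no osteoblast (OB) induction, and the siDNMT1 group received DNMT1 siRNA for the same time, also uninduced. The OB and siDNMT1_OB groups received the control or the DNMT1 siRNA, followed by 3 days in complete medium with L-ascorbic acid at 50 µM, β-glycerophosphate at 10 mM and dexamethasone. No such 3 days are given for the uninduced groups, so the OB medium and the added time in culture cannot be told apart. Values given below for induction are subject to that. All 4 groups are cultures of an immortal line from C3H mouse embryos, cultured in MEM with serum. In RNA from whole cultures, fewer cells of a kind and less mRNA per cell cannot be told apart.

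Prolyl 4-hydroxylases convert prolines of the collagen chain to 4-hydroxyproline in the endoplasmic reticulum, which keeps the triple helix stable at body temperature. Each enzyme pairs an alpha subunit, which carries the active site, with protein disulfide isomerase (P4hb). Lysyl hydroxylases act on lysines in the same compartment. Both kinds of hydroxylase need iron, 2-oxoglutarate and oxygen, and use ascorbate to keep the iron reduced. Lysyl oxidases are copper enzymes that work outside the cell, where they oxidise lysine and hydroxylysine side chains so that collagen and elastin molecules become cross-linked. OB medium carries ascorbate because osteoblasts lay down a matrix made mainly of type I collagen.

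The OB library was the shallowest, at 22296046 gene counts, and control the deepest, at 27367792, and the 10 genes together held 0.312% to 0.675% of them. Dnmt1 was at 265 CPM in control and 132 CPM in siDNMT1, a log2 fold change of −1.01. It was at 85.4 CPM in OB and 93.1 CPM in siDNMT1_OB, a log2 fold change of 0.13, so the knockdown was not seen at the mRNA level in the induced pair, and directions drawn from the library labelled siDNMT1_OB are subject to that. Of 8 mesenchymal marker genes, 8 were tested and none was at 0 in a library. Their summed level, carried mostly by Col1a1, Col1a2 and Vim, was between 25993 and 32272 CPM. Within it Pdgfra, a receptor of mesenchymal cells, was at 128 CPM in control, 141 with siDNMT1, 704 in OB and 413 in siDNMT1_OB. Not all 8 went this way. Between control and OB, 5 were higher in OB, with Pdgfra at a log2 fold change of 2.46. The 3 lower ones were Prrx1 (−0.13), Twist1 (−0.13) and Col1a1 (−0.08). Comparing siDNMT1_OB with siDNMT1, 5 were higher and 3 lower, with Pdgfra at 1.56 and Thy1 at 1.22. Against OB, 4 were higher in siDNMT1_OB and 4 lower, from Vim at 0.46 to Pdgfra at −0.77. Of 9 markers of epithelial, blood, endothelial and neuronal cells, 2 (Cd68 and Tubb3) were tested, the sum was between 5.22 and 17.5 CPM, and Epcam and Krt18 were at 0 in all 4 libraries. Tubb3, a neuronal tubulin, had 217 counts in control, 360 with siDNMT1, 44 in OB and 126 in siDNMT1_OB. Cd68 had 47, 61, 59 and 62 counts in the same order. The log2 fold changes of Tubb3 and Cd68 were −2.00 and 0.57 in OB against control, and 1.24 and −0.17 in siDNMT1_OB against OB. The part of these differences in the values below was not tested.

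P4ha1, P4ha2 and P4ha3 differed from one another between uninduced and induced cells, so the sequence before each of their start sites is shown first. The stretches are the 250 bases upstream of the RefSeq start (GRCm38.p6), each on the plus strand: chr10:59323046-59323295 for P4ha1, chr11:54100674-54100923 for P4ha2 and chr7:100285270-100285519 for P4ha3. None of them overlaps an exon in the gene table. Capitals mark ACGTG and GCGTG, the letters at the core of the hypoxia response element, read on both strands (CACGT and CACGC on the reverse strand).
P4ha1: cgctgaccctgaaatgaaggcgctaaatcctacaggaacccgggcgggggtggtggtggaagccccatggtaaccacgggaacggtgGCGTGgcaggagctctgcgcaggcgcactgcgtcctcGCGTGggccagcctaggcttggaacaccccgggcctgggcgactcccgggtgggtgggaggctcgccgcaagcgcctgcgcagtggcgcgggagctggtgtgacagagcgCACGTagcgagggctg
P4ha2: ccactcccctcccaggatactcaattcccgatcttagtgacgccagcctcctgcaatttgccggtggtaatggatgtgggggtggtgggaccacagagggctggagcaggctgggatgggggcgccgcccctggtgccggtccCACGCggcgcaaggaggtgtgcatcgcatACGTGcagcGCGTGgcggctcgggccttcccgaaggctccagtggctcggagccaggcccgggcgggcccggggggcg
P4ha3: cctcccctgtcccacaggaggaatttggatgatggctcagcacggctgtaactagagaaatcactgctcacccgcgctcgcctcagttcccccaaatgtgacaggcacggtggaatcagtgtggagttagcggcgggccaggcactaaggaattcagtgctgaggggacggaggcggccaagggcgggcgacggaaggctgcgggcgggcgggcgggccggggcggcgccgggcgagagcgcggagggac
The P4ha1 stretch held GCGTG starting 163 and 126 bases before the start and CACGT at 16 bases. The P4ha2 stretch held CACGC at 107, ACGTG at 78 and GCGTG at 69 bases, and its start site lies inside the P4ha2 span of the table, downstream of another first exon. The P4ha3 stretch held neither. Of 32817 upstream stretches of the same length, 16.6% held ACGTG and 28.1% held GCGTG on either strand, 38.6% held at least one of them, and 6.02% held CACGTG, which contains ACGTG on both strands and is also the E-box. These letter matches are a description of the windows. The promoter table held 5 of the 10 genes, and 4 of these 5 stretches held a match. The other two, not printed, were Plod1 with 1 match and Plod3 with 4.

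P4ha1 (ENSMUSG00000019916, chromosome 10, 59323296 to 59373304, plus strand, mm10) encodes the most widely expressed alpha subunit. It had 7619 counts in control, 4560 with siDNMT1, 1802 in OB and 2453 in siDNMT1_OB. In CPM this was 281 (95% counting interval 275 to 287), 178 (173 to 183), 79.6 (76.0 to 83.4) and 91.7 (88.1 to 95.4). The control library was the highest and both induced libraries were the lowest, with siDNMT1 between them. P4ha1 was 3.53-fold lower in OB than in control, a log2 fold change of −1.82 (−1.89 to −1.74), and 333 of the 13233 tested genes (2.52%) lay further down. Against siDNMT1 it was 1.94-fold lower in siDNMT1_OB, with a log2 fold change of −0.96 (−1.03 to −0.89), just short of the size of 1 used as the fold threshold. DNMT1 siRNA alone went the same way in uninduced cells, at −0.66 (−0.71 to −0.61), with 3.57% of the tested genes further down. In the induced pair its value was 0.20 (0.11 to 0.29).

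P4ha2 (ENSMUSG00000018906, chromosome 11, 54100095 to 54131665, plus strand) encodes an alpha subunit prominent in cartilage and bone cells. It had 3537, 2708, 3645 and 4103 counts in control, siDNMT1, OB and siDNMT1_OB, or 130.4, 106, 161 and 153 CPM. It was highest in the induced libraries, the reverse of P4ha1. Its log2 fold change with induction was 0.30 (0.24 to 0.37) with control siRNA and 0.54 (0.47 to 0.61) with DNMT1 siRNA. DNMT1 siRNA gave −0.30 (−0.38 to −0.23) in uninduced cells and −0.07 (−0.14 to −0.01) in induced cells.

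P4ha3 (ENSMUSG00000051048, chromosome 7, 100285520 to 100319699, plus strand), the alpha subunit described last of the family, was the flattest member. Its 1628, 1551, 1388 and 1710 counts gave 60.04, 60.6, 61.3 and 63.9 CPM, a highest-to-lowest ratio of 1.06. Each of its 4 log2 fold changes had a counting interval that spanned 0, and the largest was 0.08 (−0.02 to 0.18), for siDNMT1_OB against siDNMT1.

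The make-up of the alpha subunit pool was then compared per length, as CPM per kb of exon. P4ha1 made up 63.0% of the pool in control, 54.4% with siDNMT1, 29.9% in OB and 33.1% in siDNMT1_OB. P4ha2 went from 19.3% in control to 39.9% in OB, and P4ha3 from 17.7% to 30.2%. The ratio of P4ha1 to P4ha2 per length was 3.27 (3.14 to 3.40) in control and 0.750 (0.708 to 0.793) in OB, and 2.55 (2.43 to 2.68) in siDNMT1 and 0.907 (0.862 to 0.953) in siDNMT1_OB. P4ha2 therefore stood above P4ha1 in both induced libraries and below it in both uninduced ones. The summed level of the pool was 108 CPM per kb in control, 79.5 with siDNMT1, 64.8 in OB and 67.2 in siDNMT1_OB.

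**Figure D1:**
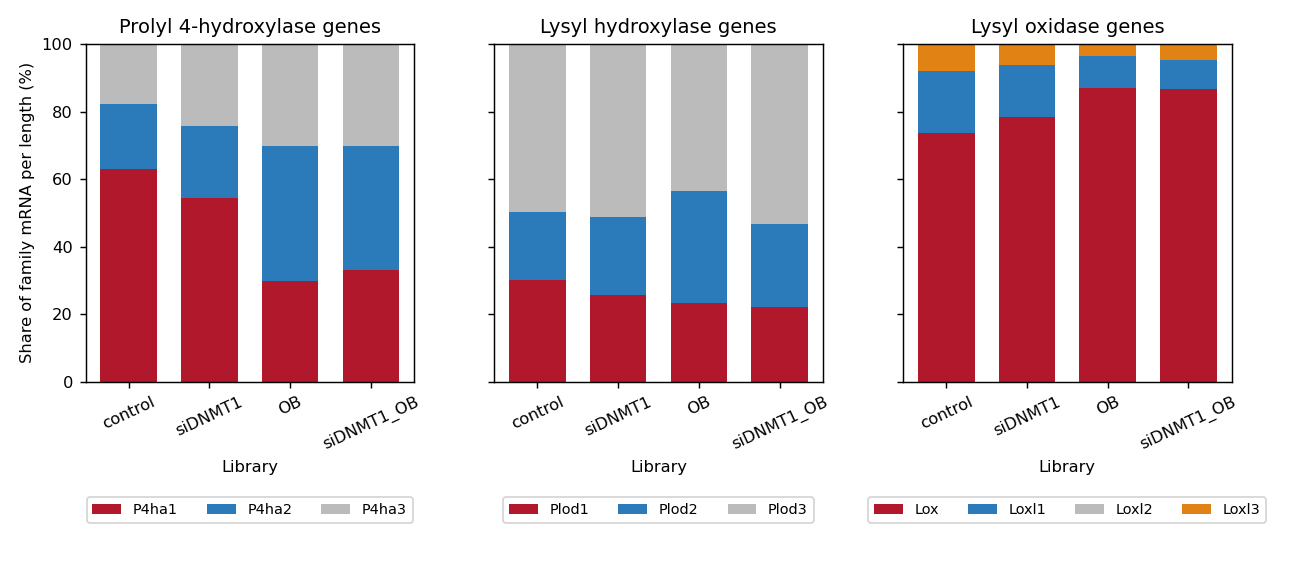
Share of each paralog in its family's mRNA (vertical axis, percent of CPM per kb summed over the family) in the 4 libraries (horizontal axis), with 1 library per bar. P4ha1 takes 63.0% of the prolyl 4-hydroxylase bar in control and 29.9% in OB, Plod2 takes 19.9% and 33.2% of the lysyl hydroxylase bar, and Lox 73.7% and 87.0% of the lysyl oxidase bar. Loxl2 is too small to be seen.

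Among the lysyl hydroxylases, Plod2 had its own highest level in the OB library. Plod2 (ENSMUSG00000032374, chromosome 9, 92542223 to 92608428, plus strand) hydroxylates the lysines of the collagen telopeptides, from which the stable cross-links of bone collagen start. It had 2490 counts in control, 2438 with siDNMT1, 3218 in OB and 2589 in siDNMT1_OB, or 91.8, 95.2, 142 and 96.7 CPM. The OB library alone was high, and the counting intervals of the control and siDNMT1 levels overlapped. Its log2 fold change was 0.63 (0.56 to 0.71) for OB against control, with 17.9% of the tested genes further up, and 0.02 (−0.06 to 0.10) for siDNMT1_OB against siDNMT1. For DNMT1 siRNA it was 0.05 (−0.03 to 0.13) in uninduced cells and −0.56 (−0.63 to −0.48) in induced cells, where 5.21% of the tested genes lay further down. It shares 346 exon bases (6.42%) with Gm38391 on the opposite strand, a gene of 20 to 51 counts.

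Plod1 (ENSMUSG00000019055, chromosome 4, 147909753 to 147936767, minus strand), which hydroxylates lysines of the helical region, was highest in control. It had 4731, 3387, 2829 and 2910 counts in control, siDNMT1, OB and siDNMT1_OB, or 174, 132, 125 and 109 CPM. All 4 of its log2 fold changes were negative. They were −0.40 (−0.46 to −0.34) for DNMT1 siRNA in uninduced cells, −0.20 (−0.28 to −0.13) in induced cells, −0.48 (−0.55 to −0.41) for OB against control and −0.28 (−0.35 to −0.21) for siDNMT1_OB against siDNMT1. Per length, Plod1 exceeded Plod2 by a ratio of 1.51 (1.44 to 1.59) in control, and in OB the ratio was 0.701 (0.666 to 0.737).

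Plod3 (ENSMUSG00000004846, chromosome 5, 136987019 to 136996648, plus strand) encodes an enzyme that both hydroxylates lysines and adds sugars to the hydroxylysines. It was the leading lysyl hydroxylase gene per length in all 4 libraries, with 43.5% to 53.2% of the family. It had 5214, 4520, 3537 and 4679 counts in the same order, or 192, 176, 156 and 175 CPM. The libraries differed little, with a highest-to-lowest ratio of 1.23, and the log2 fold changes of OB against control and of siDNMT1_OB against siDNMT1 were −0.30 (−0.36 to −0.24) and −0.01 (−0.07 to 0.05). Znhit1 on the opposite strand shares 529 of its exon bases (11.7%), and since use of strand in the counting is not given in the sources used here, its counts can include or lack reads of that gene. The summed level of the lysyl hydroxylases per kb stayed within 72.7 to 85.4 CPM per kb over the 4 libraries.

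Lox (ENSMUSG00000024529, chromosome 18, 52516069 to 52529867, minus strand) was by far the most abundant member. This founding lysyl oxidase is secreted as a proenzyme and activated by cleavage. It had 49882 counts in control, 50192 with siDNMT1, 120256 in OB and 120561 in siDNMT1_OB. In CPM this was 1839.6 (95% counting interval 1824 to 1856), 1959.6 (1943 to 1977), 5315 (5285 to 5345) and 4505 (4479 to 4530). Both induced libraries were above both uninduced libraries. Lox was 2.89-fold higher in OB than in control, a log2 fold change of 1.53 (1.52 to 1.55), with 5.33% of the tested genes further up. With DNMT1 siRNA it was 2.30-fold higher, at 1.20 (1.19 to 1.22). The siRNA made less difference, at 0.09 (0.07 to 0.11) in uninduced and −0.24 (−0.25 to −0.23) in induced cells. The counting intervals of Lox are narrow because of its depth and say nothing of the spread between cultures.

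**Figure D2:**
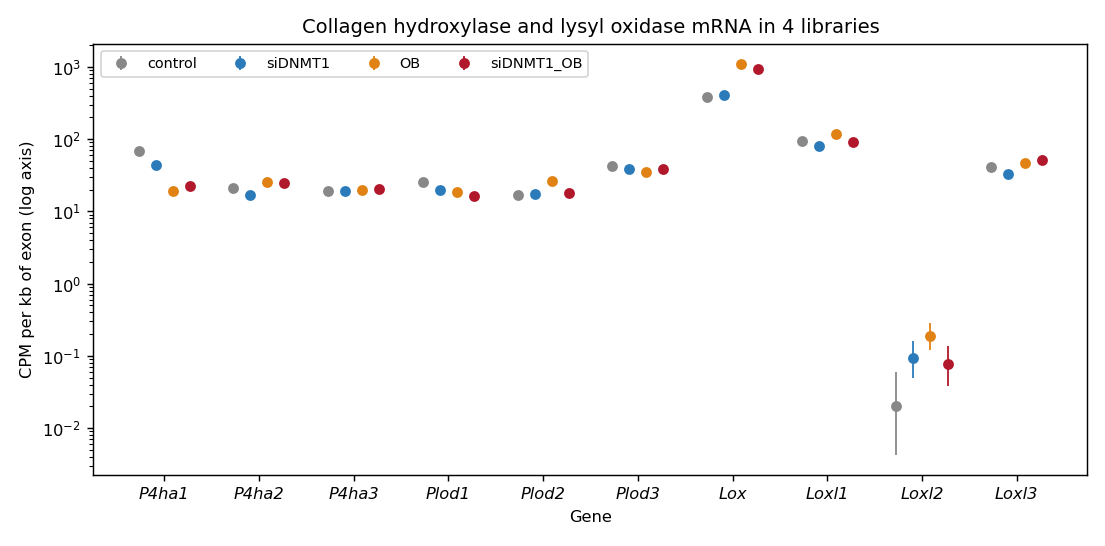
Level of each of the 10 genes (horizontal axis) as CPM per kb of exon on a log axis, with 1 point per library and bars for the exact 95% counting interval. Lox stands above every other member in the 4 libraries, from 382 in control to 1105 in OB, and Loxl2 lies at 0.188 or below.

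Loxl1 (ENSMUSG00000032334, chromosome 9, 58287738 to 58313186, minus strand), a lysyl oxidase known for its part in elastic fibre upkeep, ranked next to Lox per length in all 4 libraries. It had 8467, 6737, 8869 and 8073 counts in control, siDNMT1, OB and siDNMT1_OB, or 312, 263, 392 and 302 CPM. Each siDNMT1 library was below its partner, with log2 fold changes of −0.25 (−0.29 to −0.20) in uninduced and −0.38 (−0.42 to −0.33) in induced cells. Each induced library was above its uninduced partner, by 0.33 (0.29 to 0.37) with control siRNA and 0.20 (0.15 to 0.24) with DNMT1 siRNA.

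Loxl3 (ENSMUSG00000000693, chromosome 6, 83034173 to 83052562, plus strand) had 5206, 3884, 4839 and 6430 counts, or 192, 152, 214 and 240.3 CPM. The lowest library was siDNMT1 and the highest siDNMT1_OB, so its log2 fold change between these libraries was 0.66 (0.61 to 0.72), against 0.16 (0.10 to 0.21) for OB against control. DNMT1 siRNA gave −0.34 (−0.40 to −0.28) in uninduced cells and 0.17 (0.11 to 0.22) in induced cells. Htra2 on the opposite strand shares 535 of the exon bases of Loxl3 (11.6%), and Htra2 itself had 814 to 1790 counts.

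Loxl2 (ENSMUSG00000034205, chromosome 14, 69609068 to 69695834, plus strand), a lysyl oxidase that cross-links type IV collagen, was barely detected. It had 3 counts in control, 13 with siDNMT1, 23 in OB and 11 in siDNMT1_OB, or 0.111 (95% counting interval 0.0228 to 0.323), 0.508 (0.270 to 0.868), 1.02 (0.644 to 1.53) and 0.411 (0.205 to 0.735) CPM. OB was the highest library and control the lowest. The ratio of siDNMT1 to control was 4.59 (1.26 to 25.1) and that of OB to control 9.19 (2.78 to 47.8), while siDNMT1_OB to OB was 0.404 (0.178 to 0.863). At this depth the size of these ratios is poorly set. Gm27177 on the opposite strand, with 21 to 42 counts, shares 301 of its exon bases.

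Lox took 73.7% of the lysyl oxidase mRNA per length in control, 78.3% with siDNMT1, 87.0% in OB and 86.7% in siDNMT1_OB. The share of Loxl1 was 18.3%, 15.3%, 9.36% and 8.47% in the same order, and that of Loxl3 8.04%, 6.33%, 3.66% and 4.83%. The summed level was 519 CPM per kb in control, 520.2 with siDNMT1, 1271 in OB and 1080.3 in siDNMT1_OB, so the lysyl oxidase pool was larger in induced cells while the prolyl 4-hydroxylase pool was smaller. These sums mostly follow Lox and P4ha1. Between control and OB, P4ha2 went from 20.9 to 25.8 CPM per kb and P4ha3 from 19.2 to 19.6.

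The order of all members per length was also compared within each library. Lox and Loxl1 came first and Loxl2 last in all 4. P4ha1 followed Loxl1 in control, at 68.3 CPM per kb, and in siDNMT1, at 43.3. In OB it was at 19.4 and its interval overlapped those of P4ha3 (19.6) and Plod1 (18.5), and in siDNMT1_OB it was at 22.3. Loxl3 took the place after Loxl1 in both induced libraries, at 46.5 and 52.2 CPM per kb. In control the intervals of Plod3 (42.6) and Loxl3 (41.7) overlapped. In siDNMT1, neighbours from Plod1 (19.5) through P4ha3 (19.3) and Plod2 (17.7) to P4ha2 (16.9) overlapped, and in OB those of Plod2 (26.4) and P4ha2 (25.8) did.

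To see how the members moved with OB induction as a set, OB was compared with control. Of the 9 tested members, 1 was past the fold threshold upward (Lox) and 1 downward (P4ha1), where 10.6% and 7.1% of all tested genes were, 17.7% in either direction. A count of 2 in 9 is close to that background. The median log2 fold change of the members was 0.16, against 0.01 over all tested genes, and 5 of the 9 lay between the quartiles of all tested genes. With DNMT1 siRNA, siDNMT1_OB against siDNMT1, 1 member was past the threshold upward (Lox) and 0 downward, against 9.54% of all tested genes in either direction, 6.83% upward and 2.71% downward. The median was 0.08, against 0.00 over all tested genes.

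To see how the members moved with DNMT1 siRNA, siDNMT1 was compared with control and siDNMT1_OB with OB. In uninduced cells 0 of 9 were past the fold threshold, against 3.34% of all tested genes (1.97% higher and 1.37% lower), and 6 of 9 had a negative value, with a median of −0.25. In induced cells 0 of 9 were past it, against 3.72% (2.36% higher and 1.36% lower), and 5 of 9 were negative, with a median of −0.07. The medians over all tested genes were 0.00 and 0.01. Comparisons that share a library are not independent of each other. Each library enters 1 comparison of induction and 1 of DNMT1 siRNA, so control, for example, is shared by OB against control and siDNMT1 against control.

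**Figure D3:**
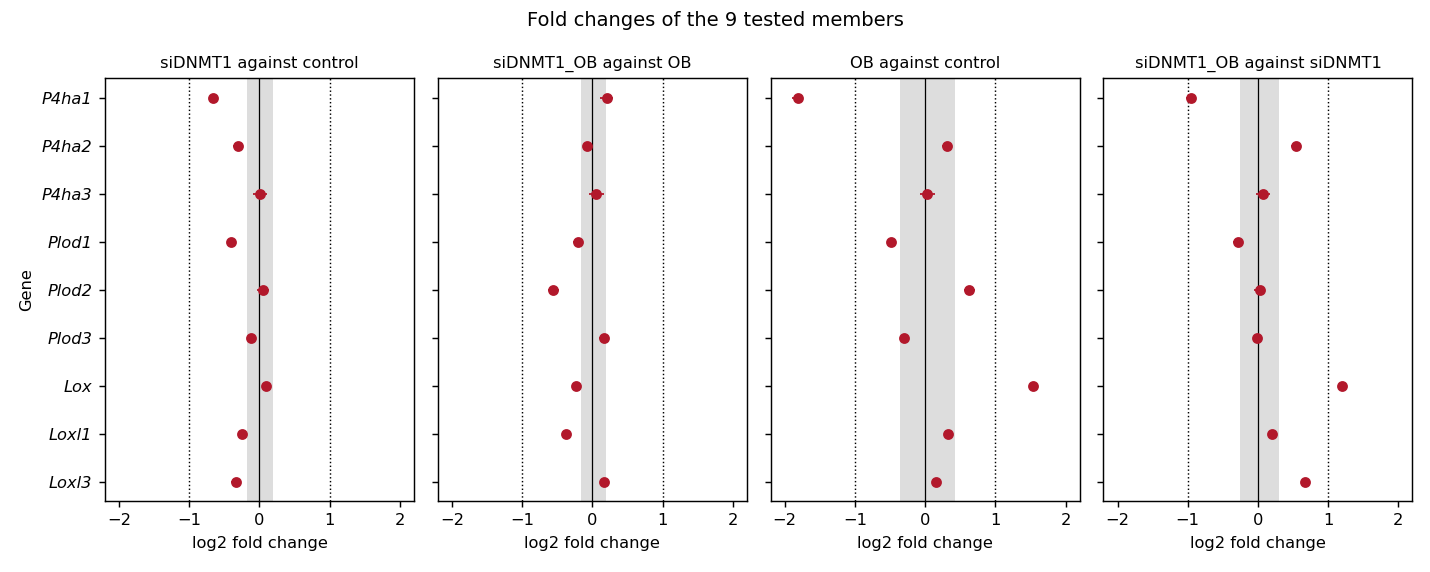
Log2 fold change (horizontal axis) of the 9 tested members (vertical axis) in the 4 comparisons, with bars for the 95% counting interval, often narrower than the point. Grey bands span the quartiles of all tested genes and dotted lines mark a log2 fold change of 1 in size. P4ha1 at −1.82 and Lox at 1.53 are outside the lines in OB against control, and Lox at 1.20 in siDNMT1_OB against siDNMT1.

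The effects of DNMT1 siRNA in both states were set side by side. These pairs share no library. The log2 fold change of the induced pair minus that of the uninduced pair was 0.86 (95% counting interval 0.76 to 0.96) for P4ha1, 0.51 (0.43 to 0.59) for Loxl3, 0.28 (0.20 to 0.37) for Plod3, −0.33 (−0.35 to −0.31) for Lox and −0.61 (−0.72 to −0.50) for Plod2. It was between −0.13 and 0.23 for Loxl1, Plod1, P4ha2 and P4ha3. Over all tested genes the 5th and 95th percentiles of this difference were −0.78 and 0.82, so of the 9 tested members P4ha1 lay outside them, with 603 tested genes further up. Such percentiles leave out a fixed share of all tested genes by definition, and P4ha1 alone among the 9 is close to that share. No replicate bears on any of these differences.

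**Figure D4:**
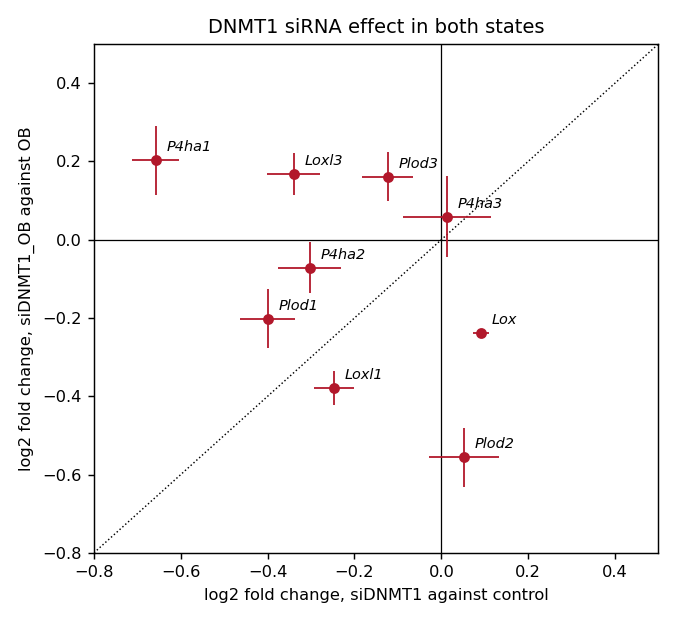
Log2 fold change with DNMT1 siRNA in uninduced cells (horizontal axis) and in induced cells (vertical axis) for the 9 tested members, with 95% counting intervals. The dotted line marks equal effects. P4ha1 lies at −0.66 and 0.20, Plod2 at 0.05 and −0.56, and P4ha3 near 0 on both axes.

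Related genes were read from 5 lists, whose counts past the threshold stand against the shares of all tested genes given above: 10.6% upward and 7.1% downward in OB against control, 6.83% and 2.71% in siDNMT1_OB against siDNMT1, 1.97% and 1.37% in siDNMT1 against control, and 2.36% and 1.36% in siDNMT1_OB against OB. Partner genes that fold and export collagen made up a list of 15, of which 14 were tested. In OB against control 1 of them was past the threshold upward and 0 downward, with a median log2 fold change of 0.28. That gene was Tmem38b, an endoplasmic reticulum cation channel needed for collagen assembly, at 1.19 (0.99 to 1.41), and it was at 1.52 (1.33 to 1.72) with DNMT1 siRNA. Serpinh1, the collagen chaperone HSP47, had 35310 counts in control and 18651 in OB, a log2 fold change of −0.66 (−0.69 to −0.63). Fkbp14, a prolyl isomerase, had 0.68 (0.56 to 0.79), and 0.52 (0.41 to 0.63) with DNMT1 siRNA, where its relative Fkbp10 had 0.48 (0.42 to 0.54). P4hb, which pairs with the alpha subunits, had 21807, 18056, 17251 and 21264 counts in control, siDNMT1, OB and siDNMT1_OB, or 804, 705, 762 and 795 CPM. In the siDNMT1 comparisons 0 of 14 were past the threshold, and P3h2, a prolyl 3-hydroxylase, was furthest from 0 at 0.73 (0.43 to 1.04) in uninduced cells, followed by Mia3, which loads collagen for export, at −0.33 (−0.41 to −0.26), and Fkbp14 at 0.23 (0.11 to 0.35). In induced cells Tmem38b was furthest, at 0.46 (0.31 to 0.62), followed by Serpinh1 at 0.29 (0.26 to 0.32) and Colgalt1, a collagen galactosyltransferase, at 0.28 (0.22 to 0.35).

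The fibrillar collagens, substrates of these enzymes, were tested for 10 of 11 genes. Past the threshold upward were 4 in OB against control, 3 in siDNMT1_OB against siDNMT1, 2 in siDNMT1 against control and 2 in siDNMT1_OB against OB, and 0 were past it downward in any of the 4. The members furthest from 0 in OB against control were Col11a1 at 2.73 (2.66 to 2.82) and Col27a1 at 2.64 (2.45 to 2.87), both collagens of cartilage. Col2a1, the main collagen of cartilage, went the other way, with 10580 counts in control and 4675 in OB, a log2 fold change of −0.92, and was at −0.02 in siDNMT1_OB against siDNMT1. Col11a2, a partner chain of Col11a1, came next, with 252 counts in control and 598 in OB (interval of the log2 fold change 1.29 to 1.73). In siDNMT1_OB against siDNMT1 they were Col11a1 at 2.01 (1.95 to 2.07), Col5a3, a chain of type V collagen, at 1.85 (1.74 to 1.96) and Col27a1 at 1.83 (1.73 to 1.94). Col1a1 and Col1a2, the chains of type I collagen, had 261547 and 240940 counts in control and 205939 and 250823 in OB, log2 fold changes of −0.08 and 0.32 after scaling. For siDNMT1 against control the list was led by Col27a1 at 2.09 (1.89 to 2.32), Col11a2 at 1.41 (1.21 to 1.64) and Col11a1 at 0.95 (0.86 to 1.04). For siDNMT1_OB against OB it was led by Col2a1 at 1.32 (1.27 to 1.37), Col27a1 at 1.28 (1.19 to 1.38) and Col5a3 at 0.91 (0.82 to 1.00).

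Genes that process procollagen or build elastic fibres beside Lox were tested for 16 of 19. In OB against control 5 were past the threshold upward and 1 downward, and with DNMT1 siRNA 4 and 1. Postn, periostin, which helps activate Lox through Bmp1, had 14523 counts in control and 132244 in OB, a log2 fold change of 3.45 (3.42 to 3.47), and 2.28 (2.26 to 2.30) with DNMT1 siRNA. Pcolce2, an enhancer of procollagen cleavage, was at 2.05 (1.70 to 2.47) and Mfap5, a microfibril protein, at 1.68 (1.47 to 1.92) in OB against control. Eln, elastin, was at 1.66 (1.38 to 1.99) and Tll1, a protease related to Bmp1, at 1.42 (1.28 to 1.56) in siDNMT1_OB against siDNMT1. The gene past the threshold downward in both comparisons was Fbln5, a fibulin of elastic fibres, with 22232, 19379, 5972 and 9537 counts in control, siDNMT1, OB and siDNMT1_OB and log2 fold changes of −1.63 and −1.09. Bmp1, the protease that cleaves the Lox proenzyme, had 7237, 4708, 9233 and 7107 counts in control, siDNMT1, OB and siDNMT1_OB, or 267, 184, 408 and 266 CPM. Eln was past the threshold in siDNMT1_OB against OB at 1.22 (0.95 to 1.52), the only one of the 16. It was followed by Pcolce2 at −0.95 (−1.25 to −0.67) and Fn1, fibronectin, at 0.68 (0.67 to 0.69). In siDNMT1 against control 0 of 16 were past it. Furthest from 0 were Postn at 0.82 (0.79 to 0.85), Fbn2, a fibrillin, at 0.77 (0.69 to 0.85) and Adamts14, a procollagen N-proteinase, at −0.70 (−0.91 to −0.49).

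Ascorbate transporters and dioxygenases other than the members were tested for 11 of 12. Slc23a2, a sodium-dependent vitamin C transporter, had 1578 counts in control, 1562 with siDNMT1, 5599 in OB and 4419 in siDNMT1_OB. Both induced libraries were above both uninduced ones, with log2 fold changes of 2.09 (2.01 to 2.17) and 1.44 (1.35 to 1.52). Egln1, the main prolyl hydroxylase of HIF, was at −1.20 (−1.31 to −1.08) in OB against control and −0.69 (−0.80 to −0.57) with DNMT1 siRNA, and Tet1 was at 1.02 (0.81 to 1.24) and 0.73 (0.54 to 0.93). In OB against control 2 of 11 were past the threshold upward and 1 downward, and with DNMT1 siRNA 1 and 0. In the siDNMT1 comparisons 0 of 11 were past it. Furthest from 0 in uninduced cells were Asph, an aspartyl hydroxylase, at −0.50 (−0.56 to −0.43), Egln1 at −0.44 (−0.54 to −0.35) and Slc23a1, another vitamin C transporter, at 0.37 (−0.30 to 1.08). In induced cells they were P4htm, a transmembrane prolyl hydroxylase, at 0.69 (0.27 to 1.15), Slc23a2 at −0.58 (−0.64 to −0.53) and Tmlhe, the trimethyllysine dioxygenase, at −0.38 (−0.53 to −0.22).

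Several members, P4ha1, P4ha2, Plod2 and Lox among them, are known targets of the hypoxia-inducible factor HIF, so 18 hypoxia response genes were read beside them, all tested. In OB against control 7 of 18 were past the threshold downward and 4 upward, against 7.1% and 10.6% of all tested genes, with a median of −0.74. In siDNMT1 against control 7 were past it downward and 0 upward, against 1.37% and 1.97%, with a median of −0.60. The corresponding counts were 2 and 1 in siDNMT1_OB against siDNMT1, against 2.71% and 6.83%, and 0 and 0 in siDNMT1_OB against OB, against 1.36% and 2.36%, with medians of −0.20 and −0.17. Ldha, lactate dehydrogenase A, had 38767 counts in control, 12197 with siDNMT1, 6977 in OB and 7292 in siDNMT1_OB. Log2 fold changes of Ldha were −2.21 (−2.25 to −2.18) in OB against control and −1.59 (−1.62 to −1.56) in siDNMT1 against control. Aldoa, a glycolytic aldolase, was furthest from 0 in siDNMT1 against control, with 7470 counts against 27824 and a log2 fold change of −1.81 (−1.85 to −1.78), and was at −0.64 (−0.69 to −0.59) in siDNMT1_OB against OB. Ak4, a mitochondrial adenylate kinase, was at −5.18 (−5.89 to −4.71) in OB against control and −1.75 (−1.93 to −1.58) in siDNMT1 against control. It was at −2.68 (−3.18 to −2.31) in siDNMT1_OB against siDNMT1 and 0.75 (0.08 to 1.52) in siDNMT1_OB against OB, from 26 and 53 counts in the induced libraries. Ankrd37, an ankyrin repeat protein, had 17 to 118 counts and was at −1.90 (−2.66 to −1.35) in OB against control, −1.59 (−2.59 to −0.89) in siDNMT1_OB against siDNMT1 and −0.73 (−1.78 to 0.15) in siDNMT1_OB against OB. Adm, adrenomedullin, was higher in the induced libraries, at 1.34 (1.17 to 1.52) in siDNMT1_OB against siDNMT1 and 1.85 in OB against control. Whether the hypoxia response had a part in the members' values was not tested.

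**Figure D5:**
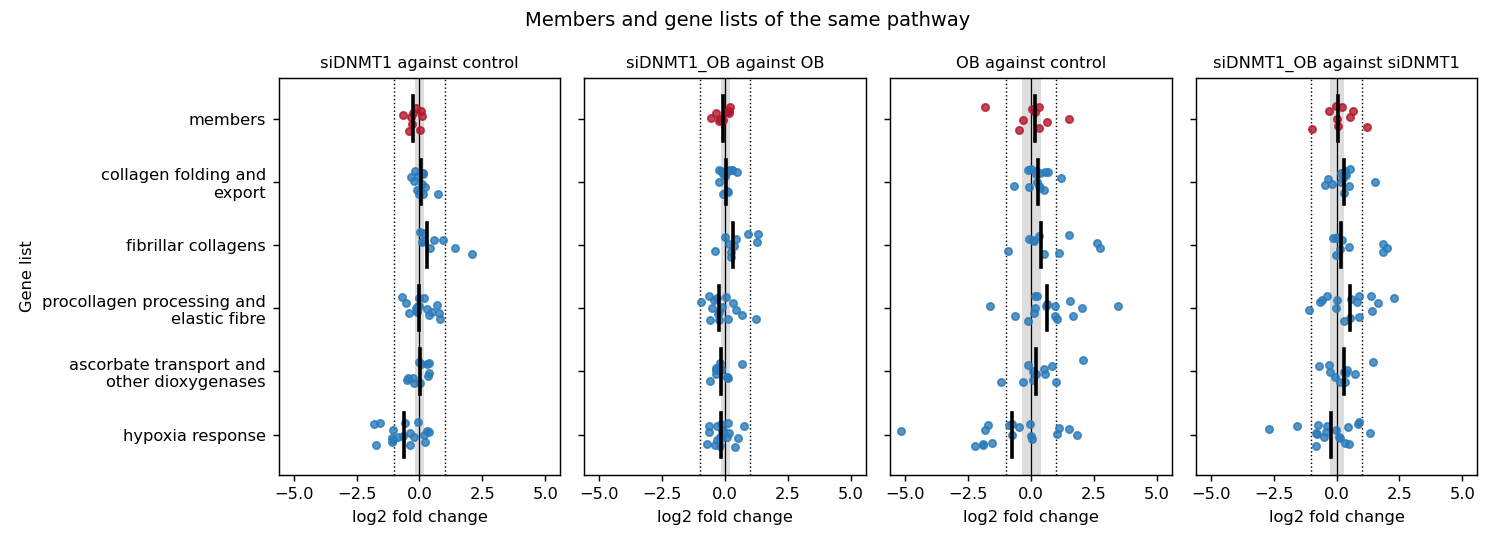
Log2 fold changes (horizontal axis) of the 9 tested members and of the tested genes of 5 related lists (vertical axis, 1 point per gene) in the 4 comparisons, with black bars at the medians, grey bands for the quartiles of all tested genes and dotted lines at a size of 1. The hypoxia list has medians of −0.60 and −0.74 in siDNMT1 against control and OB against control, and the member medians are −0.25 and 0.16.

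Genes with a profile most like that of a member were looked for among 9691 genes with a mean of at least 10 CPM, by the Euclidean distance of centred log2 CPM over the 4 libraries. For P4ha1 the nearest were Zyx at 0.11, Eno1b at 0.13, Mpp6 at 0.14, Gm4735 at 0.14 and Eno1 at 0.15. Zyx, a focal adhesion protein, had 21885, 13788, 5461 and 6785 counts in control, siDNMT1, OB and siDNMT1_OB. Eno1 is the glycolytic enolase, is on the hypoxia list, and shares near-identical sequence with Eno1b and Gm4735, so these 3 may hold the same reads. For Lox, added to the rule after its values were seen, the nearest were Lgals9, 4933431E20Rik, Nat2, Gstm5 and Adam12, all at 0.08. For Loxl2 the nearest was Sfrp2 at 0.48, from a member with too few counts for a firm profile. Likeness here describes only these 4 libraries.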

How the data were processed

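RNA was measured in 4 libraries of C3H10T1/2 cells, 1 per group. The authors deposited raw counts per gene, as whole numbers. Per the labels and the methods of the study, library preparation followed the TruSeq RNA protocol (version 2), sequenced from both ends, trimmed with Trimmomatic, aligned with HISAT2 (build mm10) and counted with featureCounts. Versions, use of strand and treatment of reads with several positions are not given in the sources used here. Libraries of a kit that does not mark strand cannot separate genes that overlap on opposite strands. The position of 9 members was the same in GENCODE M21; that of Lox differed, and coordinates are those of the table.

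A mean of at least 1 CPM over the 4 libraries was required (13233 of 54532; at least 99.7% of the counts), and TMM factors were computed over them in edgeR 4.0.16 (R 4.3.3). Log2 fold changes used a prior count of 2. Past the fold means a log2 fold change of at least 1 in size, the study's own size threshold. Exact 95% limits (Clopper-Pearson) were taken from the counts; those of the difference between effects use a normal approximation. Reads carried no molecular identifiers, so intervals cover counting error only. A count of 3 equalled 0.111 to 0.133 CPM. Lengths are the exon lengths in the table. Where a listed symbol had 2 rows (Aldoa), the row with more counts was used. The calculation was checked on simulated data.

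The text names all members, Dnmt1, the listed genes furthest from 0 (3 per list and comparison) and the nearest profiles. Col1a1, Col1a2, P4hb, Bmp1, Fbln5, Loxl4, Col2a1 under induction, the Adm value of OB against control and the cell type markers were named outside that rule. The members and the gene lists were chosen with earlier results of these data known. Alternatives were DESeq2 1.42.0 size factors, total count and upper quartile scaling, TMM over all genes, prior counts of 0.5 and 5, other filters, a fold of 1.5, and edgeR tests with an assumed or a shared spread.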

Additional observations from a re-analysis of the deposited data

Results flagged for a closer look

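For 5 members, the log2 fold change with DNMT1 siRNA had opposite signs in uninduced and induced cells, with both counting intervals clear of 0. Of the 9 tested members 4 met this, as did 1671 of the 13233 tested genes (12.6%), and the fifth was Loxl2. Counting intervals are narrow for genes with as many counts as the tested members. The induced value minus the uninduced value was 0.86 for P4ha1, 0.51 for Loxl3, 0.28 for Plod3, −0.33 for Lox and −2.79 for Loxl2. Of the tested members, P4ha1 alone lay outside the 5th to 95th percentiles of this difference over all tested genes (−0.78 to 0.82). These percentiles leave out a fixed share of all tested genes, and P4ha1 alone among the 9 is close to that share. P4ha1, Loxl3 and Plod3 were lower with DNMT1 siRNA in uninduced cells and higher in induced cells, and Lox and Loxl2 went the opposite way. Loxl2 rests on 3, 13, 23 and 11 counts. With 1 library per group these differences were not tested, and Dnmt1 mRNA itself had 0.13 in the induced pair.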

How the results depend on the processing

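No paired analysis was possible because each group has 1 library and the labels give no replicate numbers. Of 240 member log2 fold changes recomputed under other scalings and prior counts, 227 stayed inside their counting interval. None that was past the fold threshold changed sign, and the largest move without Loxl2 was 0.05. The 13 outside their interval were all values of Lox or Loxl1. Lox in OB against control ran from 1.48 to 1.58 over the scalings, a wider range than its counting interval of 1.52 to 1.55. The sign of P4ha3 in OB against control (−0.02 with DESeq2 size factors, −0.01 with TMM over all genes) and of Plod2 in siDNMT1_OB against siDNMT1 (−0.01 with TMM over all genes) changed, so neither has a direction. TMM over all genes and the Loxl4 setting were chosen after the data were seen. P4ha1 in siDNMT1_OB against siDNMT1 lay between −0.95 and −0.99 under every scaling and prior count.

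Without a filter, which adds Loxl2, 1 member was past the threshold in siDNMT1 against control and 1 in siDNMT1_OB against OB, where 9.49% and 12.0% of the 27380 genes with a count were. The member was Loxl2 both times, with 3 to 23 counts a library. In OB against control 3 members were past it (Lox, Loxl2 and P4ha1), where 22.4% of the genes with a count were. Member medians were −0.19, −0.14 and 0.23 in siDNMT1 against control, siDNMT1_OB against OB and OB against control. A fold of 1.5 counted 1 member of 9 in siDNMT1 against control and 3 in siDNMT1_OB against siDNMT1, where 10.9% and 23.0% of all tested genes passed it. With an assumed coefficient of variation of 0.4, edgeR's likelihood ratio test left 0 members in OB against control and 0 in siDNMT1_OB against siDNMT1, where it called 187 and 74 of the 13233 tested genes. With 0.2 it left 0 members in the latter, where it called 642 genes. The additive edgeR quasi-likelihood fit over the 4 libraries had 1 residual degree of freedom and allowed for no interaction. Its induction term pools OB against control with siDNMT1_OB against siDNMT1, so it gives no call for either pair alone. The term called 2 members among 1496 genes (11.3%), so the count of 2 in siDNMT1_OB against siDNMT1 is that of the pool. These members were Lox (log2 fold change 1.37, Benjamini-Hochberg adjusted p = 0.00687) and P4ha1 (−1.39, adjusted p = 0.0190). P4ha1 itself was at −1.82 in OB against control and −0.96 in siDNMT1_OB against siDNMT1, the latter not past the fold threshold. For DNMT1 siRNA, whose term pools both siRNA pairs, the fit called 0 members, among 0 genes in all. At an unadjusted p under 0.05 it had 1 member (Loxl1) and 1145 genes (8.65%).

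As shares of raw counts, P4ha1 held 59.6%, 51.7%, 26.4% and 29.7% of its family in control, siDNMT1, OB and siDNMT1_OB, and Lox 78.5%, 82.5%, 89.8% and 89.3%. With Loxl4 added to the family, Lox held 69.2%, 75.4%, 85.7% and 85.2% per length.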

Other observations

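Loxl4, the lysyl oxidase gene outside the members, had 3834 counts in control, 2191 with siDNMT1, 1816 in OB and 2201 in siDNMT1_OB, or 141, 85.5, 80.3 and 82.2 CPM. Control stood above the other libraries, which lay close together. Its log2 fold change was −0.72 (95% counting interval −0.80 to −0.65) in siDNMT1 against control, −0.82 (−0.90 to −0.74) in OB against control, 0.03 (−0.06 to 0.13) in siDNMT1_OB against OB and −0.06 (−0.14 to 0.03) in siDNMT1_OB against siDNMT1. It was named after its values were seen, and the first and second of these comparisons share the control library.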
